A study of Mus musculus with 10 samples.

Results

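The 7 genes described here, Edn1, Ednrb, Ece1, Nos3, Ace, Npr1 and Npr3, belong to the systems by which the endothelium sets vascular tone. They were chosen as a named list, with earlier results of these data known, and make up 7 of 22828 genes used. Shares of all genes called are printed beside counts of these 7 as a reference and not as a test of the list. Of 23081 genes kept in the count tables, 253 whose symbols start with U were left out, because the tables of only 1 group listed them. Their transcripts were counted as unique molecular identifiers (UMIs, 1 per captured mRNA molecule) in single endothelial cells (ECs) of mouse bone. Counts were summed over the cells of 1 type in 1 library and are given as counts per 1000000 UMIs of that sum (CPM). All 7 genes were listed in the tables, and each was compared between 5 EC types, between ages and between drug treatments.

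Edn1 encodes the precursor of endothelin 1, a strong vasoconstrictor peptide that ECs secrete, and Ece1 encodes the endothelin-converting enzyme that cuts the precursor to its active form. Ednrb encodes the endothelin B receptor, which in ECs clears endothelin and couples to nitric oxide release. Nos3 encodes endothelial nitric oxide synthase, which makes the vasodilator nitric oxide. Ace encodes angiotensin-converting enzyme, which forms angiotensin II and breaks down bradykinin. Npr1 encodes the guanylate cyclase receptor for atrial and B-type natriuretic peptides, and Npr3 encodes the clearance receptor that removes these peptides. In most organs arterial endothelium carries much of the vasoactive programme, whereas sinusoidal endothelium of the marrow is thin-walled, fenestrated and specialised for exchange and uptake.

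The cells came from femurs and tibias of Cdh5-mTnG reporter mice on a C57BL/6 background, in which an endothelial Cdh5 promoter drives membrane tdTomato and nuclear GFP, and lineage-depleted cells positive for both colours were sorted. The 5 groups had 2 libraries each: juvenile mice of 3 weeks (male and female), adult females of 12 weeks with no treatment named, aged females of 75 weeks, females of 12 weeks given parathyroid hormone (PTH, which stimulates bone formation) and females of 12 weeks given alendronate (a bisphosphonate, which inhibits osteoclasts). PTH was injected daily and alendronate every other day, and the study's methods also name injections of PBS. Whether the adult mice of these libraries were injected is not given in the sources used here. A drug therefore cannot be told apart from injection or from the separate preparation of the groups. Each group was a pool of several mice prepared once, so the spread between its 2 libraries does not measure variation between mice, and in the juvenile group age cannot be told apart from the mixture of sexes. The adult libraries are the reference of all 4 comparisons, which therefore share their controls. Total counts ran from 10653583 to 28419323 UMIs per library and the median cell held 3075 to 5149 UMIs. No pair of libraries shared more than 78 cell barcodes.

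A filter of 500 to 6000 genes and under 25% mitochondrial UMIs kept 46283 of 47466 barcodes. Of these, 43730 were endothelial and 2553 were removed as haematopoietic, mesenchymal or mural cells. Clusters were named from fixed markers, without using the 7 genes or their relatives: 13340 cells were sinusoidal bone marrow ECs (bmEC-like, Stab2), 9841 metaphyseal ECs (mpEC-like, Ramp3 and Aplnr), 5686 arterial ECs (aEC-like, Gja4), 2952 type R capillary ECs (rEC capillary-like, Timp4 and Aqp7) and 1873 type R ECs of the Tagln/Vwf kind (rEC Tagln/Vwf-like), while 10038 cells were given none of these 5 types, among them 527 cycling cells and clusters named from erythroid or haematopoietic markers. The types are called bmECs, mpECs, aECs, capillary rECs and Tagln/Vwf rECs from here on. The types were named from these markers, so marker levels are no separate check of them. The summed level of the 9 sinusoidal markers was 10262 to 13561 CPM in bmECs and at most 3120 CPM elsewhere. That of the 8 arterial markers was 6503 to 8040 CPM in aECs and at most 2060 CPM elsewhere. The metaphyseal markers separated the types less, and in juvenile capillary rECs they reached the level of aged mpECs. All 6 pan-endothelial markers (Cdh5, Pecam1, Kdr, Tek, Tie1 and Erg) were above 0 in every sum. The Tagln/Vwf sums were the least pure, with 6 lymphatic markers adding up to 465 to 6765 CPM in the juvenile, adult and aged libraries and the 7 erythroid markers to 21439 CPM in adult replicate 1. In the separate integration of the treatment libraries the lymphatic markers of this type added up to 16.3 to 16.4 CPM in the same adult libraries and to 5.78 to 79.9 CPM in the drug libraries.

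The genes lie on 7 chromosomes of the mm10 (GRCm38) genome, by the GENCODE vM21 annotation. Edn1 spans chr13:42301476-42307990 on the plus strand, Ednrb chr14:103814625-103844402 on the minus strand, Ece1 chr4:137862237-137965229 on the plus strand, Nos3 chr5:24364810-24384474 on the plus strand and Ace chr11:105967945-105989964 on the plus strand. Npr1 spans chr3:90450591-90465866 and Npr3 chr15:11839896-11907287, both on the minus strand. Exons of Nos3 overlap those of Atg9b and Gm15587 on the opposite strand over 1334 bases, and those of Npr1, Npr3, Ace and Edn1 overlap opposite-strand genes over 559, 321, 295 and 35 bases. Whether the counting used strand is not given in the sources used here, so reads of overlapping genes cannot be told apart, and Nos3 is the member most exposed to this.

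The 250 bases before the RefSeq transcription start are shown for 4 genes with different patterns between types. The sequence of each can thus be read beside its levels. Edn1 (chr13:42301226-42301475, plus strand) and Ace (chr11:105967698-105967947, plus strand, the first of its 2 listed starts) were highest in aECs. Among the named types Ednrb (chr14:103843702-103843951, minus strand) was highest in mpECs and Npr1 (chr3:90465867-90466116, minus strand) in bmECs. They are RefSeq sequences of GRCm38.p6, read 5′ to 3′ in the direction of transcription, with matches to the searched motifs in capitals. The GENCODE span of Ednrb given above begins further upstream, so the Ednrb window lies inside that span.
Edn1: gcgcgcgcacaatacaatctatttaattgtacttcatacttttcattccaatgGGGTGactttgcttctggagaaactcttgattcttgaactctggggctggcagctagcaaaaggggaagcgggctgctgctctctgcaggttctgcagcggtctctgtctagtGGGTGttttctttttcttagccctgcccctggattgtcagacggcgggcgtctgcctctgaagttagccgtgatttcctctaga
Ace: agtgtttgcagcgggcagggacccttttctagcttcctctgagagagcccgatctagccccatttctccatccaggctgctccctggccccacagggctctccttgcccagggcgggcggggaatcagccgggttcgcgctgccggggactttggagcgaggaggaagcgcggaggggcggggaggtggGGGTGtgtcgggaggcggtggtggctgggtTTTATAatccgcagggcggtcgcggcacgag
Ednrb: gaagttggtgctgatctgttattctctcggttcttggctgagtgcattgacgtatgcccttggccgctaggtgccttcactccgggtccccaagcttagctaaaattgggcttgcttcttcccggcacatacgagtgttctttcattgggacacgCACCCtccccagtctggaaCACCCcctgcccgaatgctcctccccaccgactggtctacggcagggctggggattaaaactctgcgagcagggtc
Npr1: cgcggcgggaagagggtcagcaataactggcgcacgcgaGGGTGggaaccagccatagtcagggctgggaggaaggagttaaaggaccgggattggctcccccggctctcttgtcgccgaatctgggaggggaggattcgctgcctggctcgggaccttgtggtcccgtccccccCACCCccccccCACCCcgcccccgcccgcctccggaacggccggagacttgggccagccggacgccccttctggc

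The motifs searched, on both strands, were AGATAA for GATA factors, TGANTCA for the factor AP-1, CACCC for the box of that name, AGGTCA for nuclear receptors and TATAAA for the TATA box. All 4 windows held a CACCC box, which is printed as GGGTG where it lies on the other strand, and 52.01% of 32851 promoter windows of the same length hold one. The Ace window also held a TATA box on the other strand, 31 bases before the start, as do 12.37% of windows. The GATA motif, held by 9.988% of windows, the AP-1 motif, held by 6.749%, and the nuclear receptor motif, held by 14.02%, were not among the letters of these 4 windows. The GC content was 50.4% for Edn1, 67.2% for Ace, 56.8% for Ednrb and 70.4% for Npr1.

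Edn1 and Ace were called higher in aECs and Tagln/Vwf rECs, Edn1 also in capillary rECs, and Nos3 in aECs alone. The call of Nos3 sat at the fold threshold, and its levels in aECs and both rEC types did not differ beyond their spread. Ednrb was called higher in mpECs and Npr3 in bmECs. Among the named types the level of Npr1 was also highest in bmECs, without reaching the fold required for a call. Each type was tested against the mean of the other 4 over the 6 libraries of the 3 ages, and a call required a log2 fold change beyond 1 in either direction together with an adjusted p under 0.05. Log2 fold changes are given ± their standard error. In bmECs 5 of the 7 genes were called, where 17.8% of the 11390 genes tested were. In mpECs 3 were called (8.45% of all genes), in aECs 4 (11.4%), in capillary rECs 1 (12.5%) and in Tagln/Vwf rECs 3 (9.66%).

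**Figure D1:**
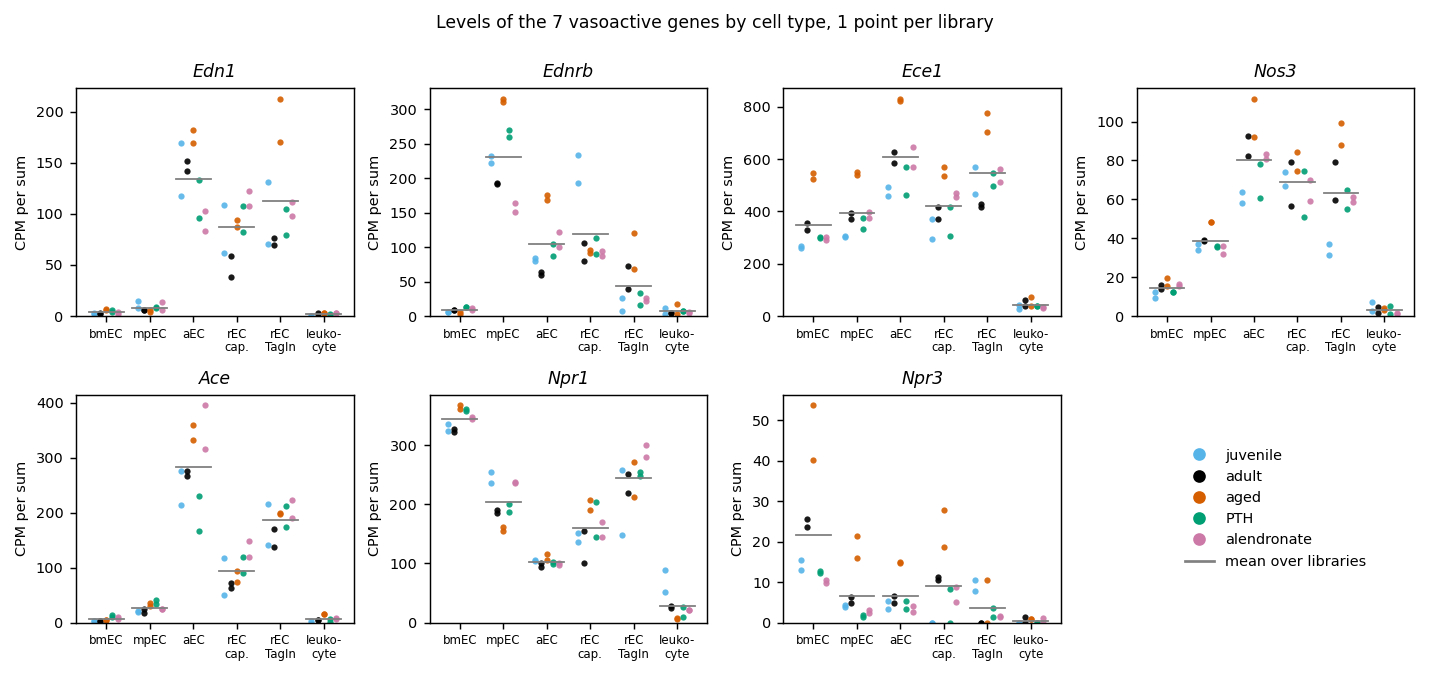
Level of each of the 7 genes in CPM per sum (y axis) in the 5 EC types and in leukocytes (x axis), with 1 point per library coloured by group and a line at the mean over libraries. Edn1 and Ace points are high in aECs and Tagln/Vwf rECs and near 0 in bmECs, Ednrb points are highest in mpECs, and Npr1 points are highest in bmECs.

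Edn1, the ligand gene, was highest in aECs, where its level over the 6 libraries ran from 117 to 182 CPM with a median of 160.4. In Tagln/Vwf rECs it ran from 70.0 to 212 CPM with a median of 104, and in capillary rECs from 38.5 to 109 CPM with a median of 74.2. In mpECs it ran from 3.80 to 14.2 CPM and in bmECs from 1.496 to 6.42 CPM, so that no library of these types overlapped with the former 3. Edn1 was higher in aECs by 2.88 ± 0.15 on the log2 scale, in Tagln/Vwf rECs by 2.61 ± 0.19 and in capillary rECs by 1.48 ± 0.22, and its log2 fold change was -2.72 ± 0.21 in mpECs and -4.25 ± 0.22 in bmECs. The adjusted p of edgeR's quasi-likelihood test was at most 1.35e-06 in each of these 5 contrasts. All 5 calls were kept under the alternatives. The value in aECs was 1.96 without integration, and that in mpECs was -3.40 at a resolution of 0.3 and -1.97 with types from each cell's own markers. aECs and Tagln/Vwf rECs, the neighbours at the top of the order, did not differ beyond their spread (log2 difference 0.21 ± 0.20, adjusted p = 0.501).

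Ece1, the converting enzyme gene, was the most even of the 7 genes. Its level over the 6 libraries ran from 459.8 to 831 CPM in aECs (median 606) and from 262 to 547 CPM in bmECs (median 343), and the ranges of the types overlapped. The log2 fold changes against the other types lay between -0.47 ± 0.08 in bmECs and 0.56 ± 0.07 in aECs, with adjusted p of 2.98e-06 and 1.3e-07, and none reached the fold required for a call. Between pairs of types Ece1 was higher in aECs than in bmECs (-0.82 ± 0.09 for bmECs against aECs), whereas mpECs and bmECs did not differ beyond their spread (-0.14 ± 0.09, adjusted p = 0.23).

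Ednrb, the endothelin B receptor gene, was highest in mpECs. The lowest, median and highest of the 6 libraries were 191, 227 and 315 CPM there, 79.9, 101 and 234 CPM in capillary rECs, 59.9, 81.4 and 175 CPM in aECs, 7.80, 53.9 and 121 CPM in Tagln/Vwf rECs and 3.58, 6.20 and 8.23 CPM in bmECs. The values of bmECs were below those of the other types except for 1 juvenile Tagln/Vwf sum, that of 29 cells with 7.80 CPM. Ednrb was higher in mpECs by 2.32 ± 0.15 and lower in bmECs with a log2 fold change of -4.07 ± 0.23 (adjusted p of 2.69e-14 and 7.48e-17). Both were still called where their size moved, to 2.91 in mpECs and -3.32 in bmECs at a resolution of 0.8 and to -3.42 in bmECs with types from each cell's own markers. In the order of levels, aECs and capillary rECs did not differ beyond their spread (0.00 ± 0.25), nor did aECs and Tagln/Vwf rECs (0.61 ± 0.27, adjusted p = 0.0923).

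Nos3, the nitric oxide synthase gene, ran from 58.1 to 112 CPM in aECs (median 87.2), from 56.8 to 84.2 CPM in capillary rECs (median 74.3), from 31.2 to 99.5 CPM in Tagln/Vwf rECs (median 69.3), from 33.8 to 48.3 CPM in mpECs (median 38.7) and from 9.10 to 19.3 CPM in bmECs (median 14.4). The 3 types at the top overlapped, and no 2 of them differed beyond their spread, whereas bmECs lay below every library of the other types. Nos3 was called lower in bmECs (-2.22 ± 0.10, adjusted p = 2.3e-19) and higher in aECs (1.04 ± 0.09, adjusted p = 1.14e-11). The call in aECs sat at the fold threshold: it was lost without adult replicate 1 or without aged replicate 1, at both other cluster resolutions, without integration and with types taken from each cell's own markers, where the log2 fold change fell to as little as 0.62. That in bmECs was -1.63 with types from each cell's own markers and still called.

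Ace had the widest span of log2 fold changes between types. Its low end was in bmECs, whose share of cells with a UMI, given below, was not above that of leukocytes. The level of Ace over the 6 libraries ran from 213 to 359 CPM in aECs, with a median of 276. In Tagln/Vwf rECs the level ran from 137 to 216 CPM, with a median of 184. It ran from 49.3 to 117 CPM in capillary rECs, from 17.4 to 34.8 CPM in mpECs and from 2.06 to 4.29 CPM in bmECs. Only the ranges of the first 2 types overlapped, by the highest Tagln/Vwf value of 216 and the lowest aEC value of 213 CPM, both from juvenile libraries. Ace was called higher in aECs (3.20 ± 0.08) and Tagln/Vwf rECs (2.36 ± 0.11) and lower in mpECs (-1.31 ± 0.10) and bmECs (-5.02 ± 0.13), with adjusted p of at most 5.54e-12. In capillary rECs the log2 fold change was 0.76 ± 0.13, which is under the fold required. These calls were kept, but the value in bmECs was -4.37 at a resolution of 0.3, -4.43 without integration and -3.96 with types from each cell's own markers. That in aECs was 2.44 without integration and that in Tagln/Vwf rECs 1.70 with types from each cell's own markers. All 10 pairs of types differed at an adjusted p of at most 2.66e-05. Only the difference between aECs and Tagln/Vwf rECs lost its call under an alternative, being 0.28 and 0.16 at resolutions of 0.3 and 0.8 and -0.16 without integration.

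Npr1, the cyclase receptor gene, was highest in bmECs among the named types, with 321 to 367 CPM (median 331). The endothelial cells without a name were at a like level, with 314 to 408 CPM (median 334). It ran from 148 to 271 CPM in Tagln/Vwf rECs, from 155 to 254 CPM in mpECs, from 101 to 207 CPM in capillary rECs and from 93.8 to 115 CPM in aECs. The values of bmECs were above those of the other named types. Npr1 was called lower in aECs (-1.10 ± 0.11, adjusted p = 4.69e-10), and in bmECs its log2 fold change of 0.95 ± 0.09 stayed under the fold required with an adjusted p of 4.11e-11. The middle of the order could not be resolved, since mpECs differed neither from capillary rECs (0.19 ± 0.14) nor from Tagln/Vwf rECs (-0.34 ± 0.13, adjusted p = 0.0514) beyond the spread. The call in aECs was lost without integration of the libraries.

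Npr3, the clearance receptor gene, was sparse. In bmECs its level ran from 12.9 to 53.6 CPM with a median of 24.5, on 778 UMIs in all 6 libraries. In the other 4 types it did not exceed 27.8 CPM, and in Tagln/Vwf rECs 12 UMIs were counted in total, with both adult sums and 1 aged sum at 0. Npr3 was called higher in bmECs (1.90 ± 0.17, adjusted p = 2.02e-11) and lower in Tagln/Vwf rECs (-1.91 ± 0.42, adjusted p = 0.000851). The value in Tagln/Vwf rECs rests on few molecules: it was -1.19 without aged replicate 1, -3.04 without aged replicate 2 and -0.16, no longer called, with types from each cell's own markers. It was -3.74 at a resolution of 0.8, -3.60 without integration and -3.24 without the cells highest in immediate early genes. The value in bmECs was 1.20, still called, with types from each cell's own markers.

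Over all 10 pairs of types, 54 of 70 differences between the 7 genes' levels were called at an adjusted p under 0.05. The share of all genes called was 47.9% for bmECs against mpECs, 52.7% for bmECs against aECs, 46.9% for bmECs against capillary rECs, 37.6% for bmECs against Tagln/Vwf rECs, 32% for mpECs against aECs, 31.6% for mpECs against capillary rECs, 28.4% for mpECs against Tagln/Vwf rECs, 23.4% for aECs against capillary rECs, 25.7% for aECs against Tagln/Vwf rECs and 23.1% for capillary rECs against Tagln/Vwf rECs. Of the 7 genes, Ece1 was the only one without a call between bmECs and mpECs, and Npr3 the only one without a call between mpECs and aECs. Between aECs and Tagln/Vwf rECs only Ace (0.67 ± 0.12) and Npr1 (-1.21 ± 0.14) were called.

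The 4 libraries of the drug-treated mice were not used in these tests, and the same contrasts were fitted to them with types named in a separate integration. The same sign was found for 32 of 35 gene by type pairs, and all 16 calls were made again in the same direction. In total 21 of 35 pairs were called: 5 in bmECs (18.9% of all genes), 4 in mpECs (8.53%), 5 in aECs (10.8%), 3 in capillary rECs (11.5%) and 4 in Tagln/Vwf rECs (10.1%). The 5 additional calls were Ednrb in aECs (1.07 ± 0.11), capillary rECs (1.01 ± 0.15) and Tagln/Vwf rECs (-1.40 ± 0.19), and Npr3 in mpECs (-1.23 ± 0.27) and capillary rECs (1.01 ± 0.34). The calls of Ednrb and Npr3 in capillary rECs sat at the fold threshold and were lost with other size factors and with DESeq2, that of Ednrb also without alendronate replicate 1 and that of Npr3 without PTH replicate 2 or alendronate replicate 2. The call of Ednrb in aECs was lost without either alendronate library, at a resolution of 0.3 and without integration, and it and that of Nos3 in aECs without the cells highest in immediate early genes, where Nos3 was 0.99. That of Npr3 in Tagln/Vwf rECs was lost without PTH replicate 2 or alendronate replicate 2. Types from each cell's own markers moved Npr3 in Tagln/Vwf rECs to -0.56, not called, Npr3 in mpECs to -2.13 and Edn1 in capillary rECs to 1.53. A resolution of 0.3 moved Ednrb in bmECs to -1.97, and one of 0.8 moved Ednrb in Tagln/Vwf rECs to -2.61. These last 4 were still called.

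Shares of cells with a UMI were compared at equal depth. Each cell was thinned to 1000 UMIs, and shares are means ± SD over the 10 libraries. Ace was detected in 25.2% ± 5.13 of aECs and 17.2% ± 2.15 of Tagln/Vwf rECs, Edn1 in 11.7% ± 3.22 and 8.74% ± 4.35 of these types, and Ednrb in 18.4% ± 3.89 of mpECs. Npr1 was detected in 27.1% ± 3.82 of bmECs and 11.2% ± 1.504 of aECs. Nos3 was detected in 7.93% ± 1.67 of capillary rECs and 7.90% ± 3.60 of aECs, shares that did not differ beyond their spread. Free RNA in the droplets can give UMIs in cells that do not express a gene, and leukocytes of the same libraries were taken as a reference. Whether leukocytes express these genes themselves was not tested. In the juvenile, adult and aged libraries Ace reached 15.6 CPM in leukocytes and 4.29 CPM in bmECs. Over all libraries together, 0.905% of 1437 leukocytes held a UMI of Ace after thinning. The share was 0.278% for Edn1, 0.835% for Ednrb, 0.278% for Nos3, 5.08% for Ece1 and 2.99% for Npr1. Of Npr3 0 leukocytes held a UMI, which allows a share of up to 0.256%, the upper end of its 95% exact interval. In bmECs the shares were 0.610% for Ace (95% exact interval 0.485 to 0.758%), 0.256% for Edn1 (0.177 to 0.358%) and 0.806% for Ednrb (0.661 to 0.973%), each below the leukocyte share and inside its 95% interval. Over the 10 libraries together these shares were not above the leukocyte reference, so low expression there cannot be told apart from background. As means over the libraries the shares in bmECs were 0.672% ± 0.498 for Ace, 0.3003% ± 0.178 for Edn1 and 0.768% ± 0.346 for Ednrb, against 1.01% ± 0.922, 0.225% ± 0.363 and 1.12% ± 0.881 in leukocytes. By this measure Edn1 was above the leukocyte mean within the spread. The shares of Nos3 (1.29%) and Npr3 (1.72%) in bmECs were above it. The median leukocyte held 5428 UMIs and the median bmEC 4013, and the intervals cover counting error only.

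**Figure D2:**
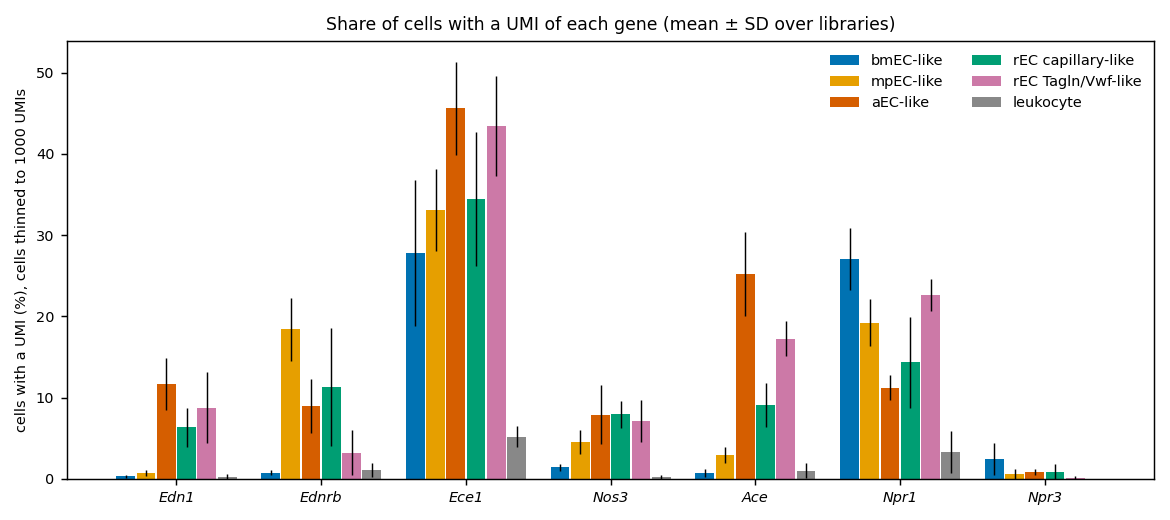
Share of cells with a UMI of each gene in percent (y axis), after thinning each cell to 1000 UMIs, in the 5 EC types and leukocytes (bars; mean and SD over libraries). Ace and Edn1 bars are tallest in aECs, Ednrb in mpECs and Npr1 in bmECs, and the bmEC bars of Ace and Ednrb are no taller than those of leukocytes, while that of Edn1, at 0.3003%, is above their 0.225% by less than the SD.

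Clusters inside a type differed as well, which is given as a description, in CPM over the pooled cells of a cluster without TMM factors. In the libraries of adult and drug-treated mice the aECs fell into 2 clusters. The 853 cells led by Gkn3, Mgp and Cytl1 had 627 CPM of Ace, 248 CPM of Edn1 and 34.7 CPM of Ednrb, whereas the 3891 cells led by Nebl, Car7 and Pcsk5 had 209 CPM of Ace, 88.5 CPM of Edn1 and 115 CPM of Ednrb. The mpECs also fell into a pair of clusters, and the 2456 cells led by Apln, Lrrc55 and Lrp4 had 258 CPM of Ednrb and 0.6 CPM of Npr3, against 178 and 5.0 CPM in the 5256 cells led by Ces2e, Btnl9 and Ramp3. Npr1 varied little between clusters of 1 type, with 103 and 108 CPM in the aEC clusters and 200 and 228 CPM in the mpEC clusters.

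Across the 30 sums of type and library, the members' levels on the log2(CPM + 1) scale were correlated to different degrees. Pearson's r was 0.94 between Edn1 and Ace, 0.89 between Nos3 and Ace and 0.83 between Edn1 and Nos3. Ednrb had r = 0.72 with Nos3, 0.52 with Ace and 0.35 with Edn1, whereas Npr1 had r = -0.73 with Ace, -0.71 with Nos3 and 0.26 with Npr3. The genes most like each member, among those with a mean of at least 20 CPM, were Tln2, Pdlim4 and Lmo7 for Edn1 (r = 0.91 to 0.94), Rbp7, Rapgef4 and Sema7a for Ednrb (0.89 to 0.92), Plec, Iqgap1 and Cp for Ece1 (0.89), Pkn3, Ceacam1 and Kitl for Nos3 (0.94), Stmn2, Lysmd2 and Emp2 for Ace (0.95), Nr2f2, Pde2a and Map1b for Npr1 (0.84 to 0.87) and 2700081O15Rik, Atxn1 and Ptbp3 for Npr3 (0.77 to 0.82). Stmn2 was 1 of the 8 markers that defined aECs. These are descriptions over 30 sums that share 6 libraries and 5 types, and Npr3 is the member with the lowest counts behind them.

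Other genes of the same pathways were taken from 4 lists: 5 endothelin genes, 18 nitric oxide genes, 9 angiotensin genes and 8 natriuretic genes were listed in the files. Of the nitric oxide list 15 were tested between types. In bmECs 7 of them were called lower and 1 higher, with a median log2 fold change of -0.97, where 8.93% of all genes were called lower and 8.85% higher. In aECs 4 were higher and 0 lower (median 0.28), where 6.29 and 5.13% of all genes were, and in Tagln/Vwf rECs 4 higher and 1 lower (0.19), where 6.38 and 3.27% were. In capillary rECs 3 were higher and 2 lower (0.35), where 6.08 and 6.46% of all genes were, and in mpECs 3 higher and 2 lower (-0.05), where 4.76 and 3.69% were. Of the endothelin list only Ece2, a second converting enzyme, was tested and it was called in no type. Of the angiotensin list 3 were tested, with 1 called higher in bmECs, mpECs, aECs and Tagln/Vwf rECs each, 1 lower in Tagln/Vwf rECs and 2 lower in capillary rECs. Of the natriuretic list 3 were tested, with 1 higher in bmECs and 1 lower in aECs. With 1 to 3 genes tested, the counts of these 3 lists cannot be read against the shares of all genes. The median log2 fold change of all genes tested lay within 0.06 of 0 in these contrasts and in those between groups.

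Cav1, which encodes the caveolar protein that binds and restrains nitric oxide synthase, was higher in capillary rECs (3.21 ± 0.13) and lower in bmECs (-5.52 ± 0.21), with 3061 CPM ± 167 (SD, n = 2) and 29.4 CPM ± 2.6 in the adult libraries. Cav1 is a marker that the study itself uses for type R vessels, so its direction is not independent evidence. Nos2, the inducible synthase, was also highest in capillary rECs (3.03 ± 0.20), with 59.8 CPM ± 7.7 in adult libraries. Gucy1a3, a subunit of the soluble guanylate cyclase that senses nitric oxide, was higher in Tagln/Vwf rECs (6.10 ± 0.32), as was Anpep (6.77 ± 0.30), an aminopeptidase that degrades angiotensin peptides. Enpep, the aminopeptidase that converts angiotensin II to angiotensin III, was higher in mpECs (3.50 ± 0.20), as was Nostrin (2.95 ± 0.16), which encodes a trafficking partner of nitric oxide synthase. Pde2a, a phosphodiesterase that cGMP stimulates, was higher in bmECs (1.52 ± 0.09) and lower in aECs (-1.87 ± 0.12). Ddah1, an enzyme that removes an inhibitor of nitric oxide synthesis, was higher in aECs (1.41 ± 0.17).

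**Figure D3:**
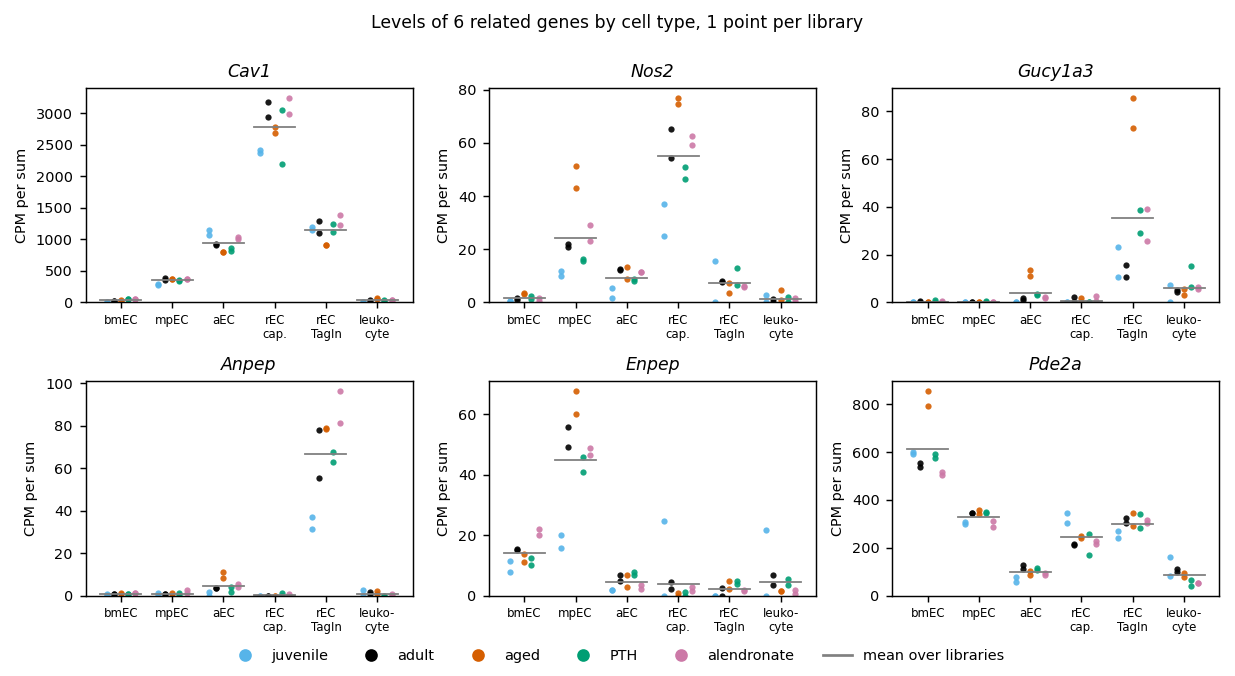
Level of 6 related genes in CPM per sum (y axis) in the 5 EC types and leukocytes (x axis), with 1 point per library coloured by group and a line at the mean over libraries. Cav1 and Nos2 are highest in capillary rECs, Gucy1a3 and Anpep in Tagln/Vwf rECs, Enpep in mpECs and Pde2a in bmECs.

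With ageing, most changes of the 7 genes were increases, and Ece1 rose in every type. Within each type the 2 aged libraries were compared with the 2 adult libraries, and 33 of 35 gene by type pairs could be tested, since Npr3 did not pass the filter on low counts in either rEC type. Of these, 21 were called at an adjusted p under 0.05, 19 higher and 2 lower. Genes in general changed widely between these libraries. In bmECs 4 members were called, 3 higher and 1 lower, where 61.8% of all genes were (30.1% higher, 31.6% lower), and in mpECs 6 members, 5 higher and 1 lower, where 63.5% of all genes were (32.1% higher, 31.5% lower). In aECs 5 members were called, all higher, where 56.3% of genes were (27.9% higher, 28.4% lower). In capillary rECs 3 were called higher (52.5% of genes, 26.9% higher and 25.6% lower) and in Tagln/Vwf rECs 3 (35.9% of genes, 17.7% higher and 18.2% lower). With 7 genes in the list these counts are near the background, and over all genes the split between directions was close to even. The pairs repeat the same 7 genes over types of the same libraries, so they are not independent. The split between directions among the members was not tested.

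The aged libraries also stood apart in other measures. Their tables listed 22735 and 22736 genes against 20390 and 20347 in the adult ones. Genes whose symbols start with U held 1.55% of their UMIs. The tables of the other 8 libraries did not list these genes, so this is a difference between tables and not a measured level. Whether the 4 libraries were prepared with the same kit version and counted against the same annotation is not given in the sources used here. Their mitochondrial share was 1.88 to 3.74% of UMIs in the sums of the 5 types, against 0.735 to 1.48% in adult libraries, the summed level of 8 immediate early genes was 722 to 1177 CPM against 1588 to 2433 CPM, and that of 11 haematopoietic markers 86.6 to 189 CPM against 39.7 to 70.7 CPM. Between 1 and 6 of these 11 markers were at 0 in each of these sums. The aged bmECs numbered 290 and 281 cells with medians of 9174 and 8684 UMIs per cell, against 1933 and 1934 adult cells with medians of 3676 and 3404. The part of these measures in the changes with age was not tested.

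Ece1 had 547 and 525 CPM in aged bmECs against 357 and 329 in adult bmECs, 538 and 550 against 394 and 370 in mpECs, and 831 and 823 against 583 and 629 in aECs. In capillary rECs the values were 571 and 535 against 416 and 371 CPM, and in Tagln/Vwf rECs 702 and 775 against 428 and 417 CPM. The aged libraries were above the adult ones in all 5 types without overlap. The log2 fold changes were 0.56 ± 0.05, 0.48 ± 0.06, 0.42 ± 0.07, 0.55 ± 0.11 and 0.91 ± 0.17 in that order, with adjusted p of at most 0.000658, and the call in aECs alone was lost when the libraries were clustered without integration.

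Edn1 had 212 and 170 CPM in aged Tagln/Vwf rECs against 70.0 and 76.5 in adult ones (1.49 ± 0.23, adjusted p = 0.000149), and 86.8 and 93.6 CPM in aged capillary rECs against 58.9 and 38.5 (0.94 ± 0.24, adjusted p = 0.000844). The aged values were above the adult ones in both type R populations. In the Tagln/Vwf sums the 9 mesenchymal markers added up to 343 to 405 CPM in aged libraries against 132 to 137 CPM in adult ones, with 4 to 7 of them at 0, and the 7 erythroid markers reached 21439 CPM in adult replicate 1, and their part was not tested. The 6 lymphatic markers of these sums added up to 465 and 823 CPM in the aged against 790 and 1039 in the adult libraries. With the Tagln/Vwf cells that held a lymphatic UMI left out, a choice made after seeing the data, the change of Edn1 was 1.40 and that of Ece1 0.84, both still called. Without adult replicate 2 the call in capillary rECs was lost, whereas that in Tagln/Vwf rECs was kept under every setting tried. The 5 markers of Tagln/Vwf rECs were higher in both aged type R populations, with 3339 and 3740 against 2393 and 2542 CPM in Tagln/Vwf rECs and 885 and 772 against 385 and 412 in capillary rECs, and their part was not tested. In aECs Edn1 had 169 and 182 CPM against 142 and 152 (0.23 ± 0.10, adjusted p = 0.0407), and this small change became -1.23 without integration and was lost without adult replicate 1, adult replicate 2 or aged replicate 2. In bmECs the values were 6.42 and 6.08 against 1.496 and 2.73 CPM (1.48 ± 0.38), where 2 of 290 and 1 of 281 aged cells held a UMI after thinning (0.690 and 0.356%, against 0.719 and 0.813% of the aged leukocytes). The value, no longer called, was 0.70 at a resolution of 0.8 and -0.17 with types from each cell's own markers.

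Ednrb, the receptor, rose in aged aECs, with 175 and 168 CPM against 59.9 and 63.5 in adult aECs (1.45 ± 0.11, adjusted p = 1.98e-15), and in aged mpECs, with 315 and 310 CPM against 192 and 191 (0.67 ± 0.06, adjusted p = 3.33e-11). The groups did not overlap in either type, and both calls were kept under every setting and without any single library. The metaphyseal markers were lower in both aged types, with 946 and 926 against 1216 and 1210 CPM in aECs and 4775 and 4650 against 5527 and 5314 CPM in mpECs. The arterial markers, given below, were lower in aged aECs. In the treatment libraries the aEC cluster led by Nebl had 115 CPM of Ednrb and the one led by Gkn3 had 34.7 CPM. No setting compared aged with adult cells inside such clusters, and the part of a shift between them was not tested. In bmECs Ednrb fell from 8.23 and 8.04 to 5.74 and 3.58 CPM (-0.88 ± 0.30, adjusted p = 0.0108), a level at which 1 of 290 and 1 of 281 aged cells held a UMI after thinning. These shares of 0.345 and 0.356% were below the 0.835% of leukocytes over all libraries. The call was lost without aged replicate 2, with DESeq2, at a resolution of 0.3, with types from each cell's own markers and without the cells highest in immediate early genes. In capillary rECs, with 91.2 and 95.4 against 79.9 and 106 CPM, the groups overlapped.

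Npr3 rose in the 3 types where it could be tested. It had 40.2 and 53.6 CPM in aged bmECs against 23.5 and 25.6 in adult bmECs (0.85 ± 0.14), 15.9 and 21.3 CPM against 4.79 and 6.43 in mpECs (1.70 ± 0.24) and 14.9 and 14.7 CPM against 6.66 and 4.83 in aECs (1.31 ± 0.36), with adjusted p of 5.26e-07, 1.54e-07 and 0.00206. Only the call in aECs was lost under another setting, with DESeq2. The 9 sinusoidal markers were higher in aged bmECs, with 13561 and 13411 against 12290 and 11726 CPM, and lower in aged mpECs, with 1329 and 1176 against 1610 and 1795 CPM. In these libraries the mpEC cluster led by Rbp7 had 15.1 CPM of Npr3 and the one led by Kcne3 and Apln had 2.6 CPM. The part of a shift between these clusters was not tested. Npr1, the cyclase receptor, was called lower in mpECs, with 155 and 162 CPM against 189 and 186 (-0.28 ± 0.07), and higher in capillary rECs, with 191 and 207 CPM against 101 and 154 (0.71 ± 0.16). The call in capillary rECs was lost without adult replicate 1, the library with 101 CPM, and was 0.28, not called, with types from each cell's own markers.

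Ace rose in aged mpECs (29.9 and 34.8 against 24.4 and 17.4 CPM, 0.59 ± 0.15), aECs (333 and 359 against 267 and 277 CPM, 0.32 ± 0.08) and Tagln/Vwf rECs (200.3 and 198 against 171 and 137 CPM, 0.48 ± 0.18). These changes were small, that in mpECs was lost without adult replicate 2, that in aECs turned to -0.999 without integration, and that in Tagln/Vwf rECs, with an adjusted p of 0.0497, was lost without any 1 of the 4 libraries. Nos3 was called in mpECs, with 48.3 and 48.3 against 38.3 and 39.1 CPM (0.29 ± 0.11, adjusted p = 0.0199), and this call too was lost without any 1 of the 4 libraries. The arterial markers added up to 1939 and 2060 CPM in aged mpECs against 1482 and 1500 in adult ones, and to 6503 and 6516 CPM in aged aECs against 8040 and 8035. In leukocytes Ace had 15.5 and 15.6 CPM in aged libraries against 4.26 and 4.72 in adult ones.

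**Figure D4:**
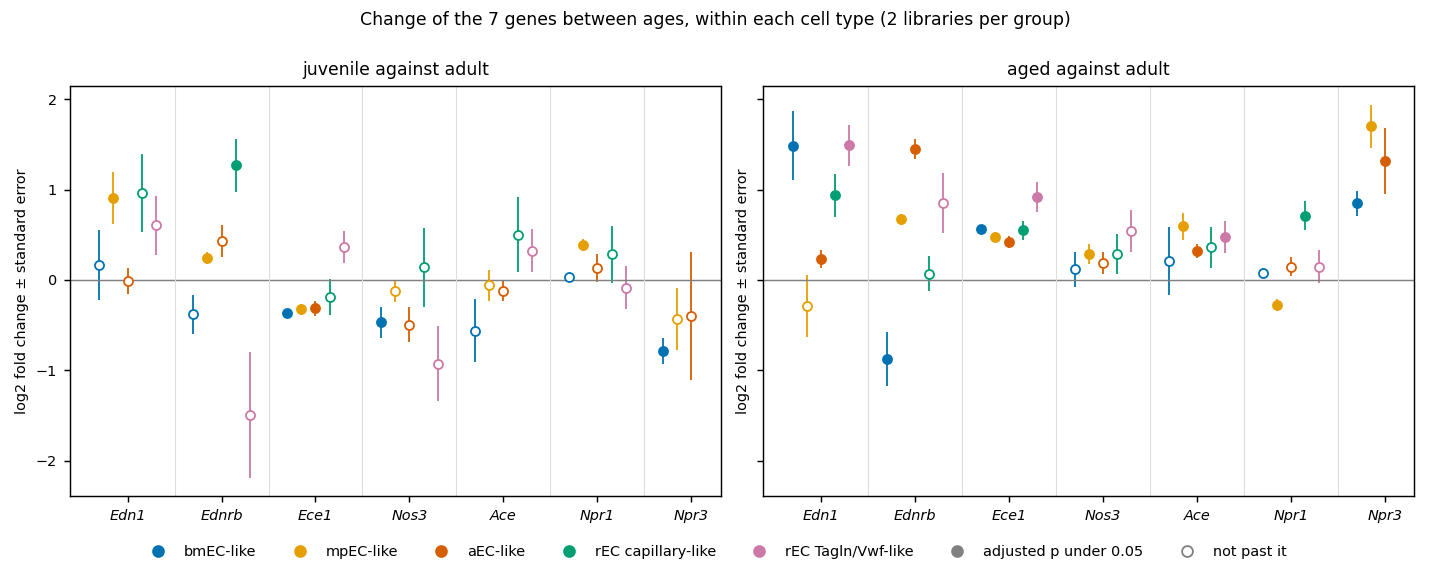
Log2 fold change ± standard error (y axis) of each gene (x axis) within each of the 5 EC types, juvenile against adult on the left and aged against adult on the right, with filled points for adjusted p under 0.05. Ece1 points are above 0 in all 5 types on the right and below 0 in bmECs, mpECs and aECs on the left.

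Of the natriuretic list 3 of 4 tested were called higher in aged bmECs (median 0.48), where 30.1% of all genes were, 2 of 3 in mpECs (0.77, 32.1% of all genes), 2 of 3 in capillary rECs (1.07, 26.9%) and 2 of 3 in aECs with 1 lower (0.93, 27.9%), and in Tagln/Vwf rECs 0 of 3 were called (0.34). Among these were Furin, which encodes a protease that processes natriuretic peptide precursors (0.93 ± 0.11 in aECs, 1.53 ± 0.22 in capillary rECs), and Npr2, the receptor for C-type natriuretic peptide (1.01 ± 0.21 in aECs, 1.07 ± 0.33 in capillary rECs). The nitric oxide list had 4 higher and 6 lower of 13 in aECs (median -0.23, 56.3% of all genes called), 5 and 6 of 14 in bmECs (-0.17, 61.8%), 5 and 6 of 13 in mpECs (-0.02, 63.5%), 3 and 3 of 11 in capillary rECs (-0.10, 52.5%) and 1 and 2 of 10 in Tagln/Vwf rECs (-0.37, 35.9%). Gucy1a3 rose in Tagln/Vwf rECs (2.68 ± 0.36) and aECs (2.84 ± 0.53), while Ddah1 fell in aECs (-1.26 ± 0.19) and mpECs (-1.47 ± 0.24) and Ddah2, of the same enzyme family, in bmECs (-1.14 ± 0.09) and Tagln/Vwf rECs (-1.35 ± 0.22). Ece2, the only endothelin gene tested, was lower in bmECs (-2.43 ± 0.32), mpECs (-1.77 ± 0.23) and aECs (-2.04 ± 0.51), the reverse of Ece1. Of the angiotensin list Atp6ap2, the prorenin receptor, was lower in 4 types and Anpep higher in aECs (1.39 ± 0.47), as was Enpep in mpECs (0.26 ± 0.10).

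In juvenile libraries fewer changes were called. Of 33 pairs 9 were called, 4 higher and 5 lower. In bmECs 3 members were called lower and 0 higher, where 35.1% of all genes were called (17.4% higher, 17.7% lower), and in mpECs 3 higher and 1 lower (28.1%, with 13.9% higher and 14.2% lower). In aECs 1 was lower (10.5%, with 4.98% higher and 5.49% lower), in capillary rECs 1 higher (3.64%, with 2.12% higher and 1.53% lower) and in Tagln/Vwf rECs 0 of 6 were called, where 1.07% of genes were (0.382% higher, 0.688% lower). In Tagln/Vwf rECs edgeR's test gave 2 of the 6, Ednrb and Nos3, an unadjusted p under 0.05, and DESeq2 called 0. The juvenile rEC sums were small, with 47 and 30 capillary and 29 and 44 Tagln/Vwf cells.

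Ece1 was lower in juvenile bmECs (268 and 262 against 357 and 329 CPM, -0.36 ± 0.05), mpECs (307 and 302 against 394 and 370 CPM, -0.33 ± 0.06) and aECs (459.8 and 493 against 583 and 629 CPM, -0.31 ± 0.08). The groups did not overlap in these 3 types, and in each of them the levels stood in the order juvenile, adult, aged. The call in bmECs was lost without integration. That in aECs was lost without juvenile replicate 1 or adult replicate 2, with DESeq2, without the filter on low counts, without integration, with types from each cell's own markers and without the cells highest in immediate early genes. That in mpECs was kept under every setting. Npr3 was lower in juvenile bmECs (12.9 and 15.3 against 23.5 and 25.6 CPM, -0.79 ± 0.14), as was Nos3 (9.10 and 12.4 against 16.2 and 13.7 CPM, -0.47 ± 0.17, adjusted p = 0.0293). Without integration both turned positive, to 0.59 for Npr3 and 0.35 for Nos3, and neither was then called. The call of Nos3 was also lost without juvenile replicate 1 or adult replicate 1, with DESeq2 and under 3 other choices of cells. The sinusoidal markers of bmECs were lower too, with 10262 and 10331 against 12290 and 11726 CPM.

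Edn1 was higher in juvenile mpECs (14.2 and 8.04 against 5.70 and 6.19 CPM, 0.91 ± 0.29, adjusted p = 0.0166). The call was lost without juvenile replicate 1 or adult replicate 1, with DESeq2, without the filter on low counts and at a resolution of 0.3. The value was 1.58 without integration and 1.95 with types from each cell's own markers, both called. Ednrb was higher in juvenile capillary rECs, with 193 and 234 against 79.9 and 106 CPM (1.27 ± 0.29, adjusted p = 0.00454), a difference that was lost without juvenile replicate 2 or adult replicate 1 and was 0.50, not called, with types from each cell's own markers. In that type the 8 metaphyseal markers added up to 4640 and 5571 CPM in the juvenile libraries against 2973 and 3335 CPM in the adult ones, and their part was not tested. In mpECs, where these markers also were higher (7109 and 7201 against 5527 and 5314 CPM), the changes were smaller, 0.24 ± 0.07 for Ednrb and 0.39 ± 0.07 for Npr1, and that of Ednrb became -0.084 with types from each cell's own markers and was lost without juvenile replicate 1 or adult replicate 2, and that of Npr1 was 0.019, not called, without integration. Of the related genes Cav1 was lower in juvenile bmECs (-1.51 ± 0.14), Enpep was lower in juvenile mpECs (-1.54 ± 0.14) and Ddah1 higher in juvenile aECs (1.35 ± 0.18). In Tagln/Vwf rECs and capillary rECs 0 related genes of any list were called, and in bmECs the nitric oxide list had 1 higher and 5 lower of 14 (median -0.10, 35.1% of all genes called), in mpECs 2 and 4 of 13 (-0.02, 28.1%) and in aECs 3 and 1 of 13 (-0.03, 10.5%).

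After PTH 12 of 33 pairs were called, 7 higher and 5 lower. In bmECs 6 members were called, 4 higher and 2 lower, where 9.82% of all genes were (5.71% higher, 4.11% lower), and in mpECs 5, 3 higher and 2 lower (17.2%, with 8.58% higher and 8.63% lower). In aECs 0 of 7 were called (7.32%, with 3.4% higher and 3.92% lower), in capillary rECs 0 of 6 (3.08%, with 1.58% higher and 1.5% lower) and in Tagln/Vwf rECs 1, lower (0.971%, with 0.331% higher and 0.639% lower). An unadjusted p under 0.05 from edgeR's test was found for 1 gene in aECs (Ednrb) and 2 in capillary rECs (Ace and Edn1), and DESeq2 on the same sums called 0 in these types and 5 of the 33 pairs in all. Capillary rECs of PTH replicate 1 numbered 39 cells, against 381 in PTH replicate 2. In simulated counts of this comparison the test recovered 33 of 100 genes changed 2-fold. The 0 calls in this type therefore do not show that the genes kept their level. Adult levels in CPM below are those of the same 2 adult libraries with types named in the integration of the treatment libraries. Adult shares of cells with a UMI instead use types named in the integration of the 3 ages.

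Ace rose with PTH in mpECs, from 15.8 and 14.6 CPM in adult libraries to 34.1 and 40.6 (1.32 ± 0.13, adjusted p = 7e-08), and in bmECs, from 3.89 and 4.41 to 14.0 and 10.7 CPM (1.51 ± 0.24, adjusted p = 2.31e-05). The groups did not overlap and both calls were kept under every setting and without any single library. After thinning, 10 of 606 and 22 of 1662 PTH bmECs held a UMI of Ace, which is 1.65% (95% exact interval 0.794 to 3.01%) and 1.32% (0.831 to 2.00%). The shares were 0.470 and 0.209% of the 1913 and 1912 adult bmECs named in the integration of the 3 ages. The bmECs on the 2 sides of this comparison were thus named in different integrations. Over all libraries together leukocytes had 0.905% (0.483 to 1.54%), so that the second PTH library lay inside this interval and the first above it. Of the leukocytes of the PTH libraries 1 of 67 (1.49%) and 0 of 103 held a UMI of Ace, the latter allowing a share of up to 3.52%, the upper end of its 95% exact interval. The 8 arterial markers, among which Ace is not counted, added up to 272 and 224 CPM in PTH bmECs against 126 and 137 in adult bmECs, and to 1064 and 1135 CPM in PTH mpECs against 770.0 and 873 in adult mpECs, with 0 of the 8 at 0 in these sums. The arterial markers thus moved in the same direction as Ace in both types, and their part was not tested. In aECs, where Ace is highest, it had 167 and 229.6 CPM with PTH against 209 and 211 in adult libraries (-0.05 ± 0.10), and the groups overlapped.

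Edn1 rose with PTH in mpECs, from 3.51 and 3.21 to 8.13 and 8.88 CPM (1.34 ± 0.33, adjusted p = 0.00681), and in bmECs, from 1.69 and 2.27 to 5.51 and 4.24 CPM (1.23 ± 0.37, adjusted p = 0.025). These levels are low, and in PTH bmECs 0.330 and 0.181% of cells held a UMI, inside the leukocyte interval of 0.0759 to 0.711%. The call in bmECs was lost without any 1 of the 4 libraries and without integration, that in mpECs without PTH replicate 2, and both with DESeq2. Npr3 fell in both types: from 5.26 and 7.49 to 1.27 and 1.95 CPM in mpECs (-1.86 ± 0.34) and from 22.4 and 23.8 to 12.3 and 12.7 CPM in bmECs (-0.86 ± 0.15), with adjusted p of 0.000351 and 0.000106, and both calls were kept under every setting and without any single library. In PTH mpECs the sinusoidal markers were lower, with 1604 and 1670 against 2902 and 2814 CPM in adult mpECs, and the metaphyseal markers higher, with 7691 and 7797 against 5396 and 5289 CPM. Of the mpEC clusters described above, the one led by Apln had less Npr3 and more Ednrb. The part of this shift in the changes of Npr3 and Ednrb in mpECs was not tested. In bmECs the sinusoidal markers overlapped between the groups (11633 and 12155 against 12070 and 11439 CPM).

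Ednrb rose with PTH in mpECs, from 165 and 171 to 269 and 259 CPM (0.63 ± 0.06, adjusted p = 2.85e-08), and its smaller rise in bmECs (8.69 and 8.15 to 12.7 and 13.7 CPM, 0.68 ± 0.20) was 1.29 at a resolution of 0.3. In PTH bmECs 1.32 and 1.20% of cells held a UMI of Ednrb, inside the leukocyte interval of 0.432 to 1.45%. The metaphyseal markers of bmECs added up to 1333 to 1420 CPM with PTH against 1117 to 1132 in adult sums. Their part in the change of Ednrb was not tested. In Tagln/Vwf rECs Ednrb fell from 73.8 and 62.5 to 16.7 and 33.2 CPM (-1.30 ± 0.29, adjusted p = 0.0218). That fall was -0.039 at a cluster resolution of 0.8 and 0.27 with types from each cell's own markers, neither called. The 6 lymphatic markers of this type added up to 16.4 and 16.3 CPM in the adult sums, with 3 of the 6 at 0 in each, and to 5.78 and 79.9 CPM in the PTH sums, with 4 and 0 at 0. With the 108 Tagln/Vwf cells of all libraries that held a lymphatic UMI left out, a choice made after seeing the data, the change was -1.45 and still called. Without adult replicate 1 or adult replicate 2, with DESeq2 and without integration it was not called, and without PTH replicate 2 it was -2.05. Npr1 changed little, with 0.15 ± 0.05 in bmECs and -0.22 ± 0.05 in mpECs, and Ece1 had -0.18 ± 0.05 in bmECs. These small calls rested on single libraries: that of Ednrb in bmECs was lost without adult replicate 1, adult replicate 2 or PTH replicate 2, that of Npr1 in bmECs without any 1 of the 4 libraries and in mpECs without PTH replicate 1, and that of Ece1 without adult replicate 1 or PTH replicate 2. Each of these 4 was also lost with DESeq2.

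**Figure D5:**
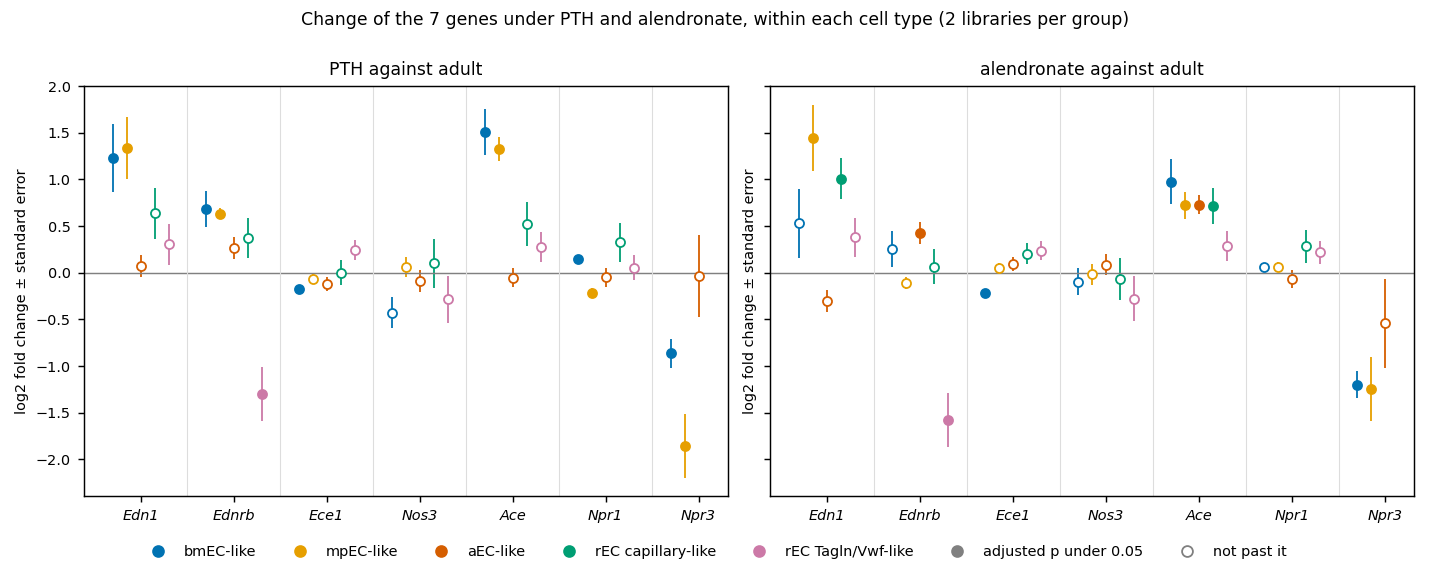
Log2 fold change ± standard error (y axis) of each gene (x axis) within each of the 5 EC types, PTH against adult on the left and alendronate against adult on the right, with filled points for adjusted p under 0.05. Ace points are above 0 in bmECs and mpECs with both drugs and Npr3 points below 0.

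With alendronate 11 of 33 pairs were called, 7 higher and 4 lower. In bmECs 3 members were called, 1 higher and 2 lower, where 20.3% of all genes were (11.3% higher, 9.05% lower), in mpECs 3, 2 higher and 1 lower (12.8%, with 7.56% higher and 5.28% lower), in aECs 2, both higher (6.77%, with 3.82% higher and 2.95% lower), in capillary rECs 2 of 6, both higher (3.08%, with 1.66% higher and 1.42% lower), and in Tagln/Vwf rECs 1 of 6, lower (1.88%, with 0.994% higher and 0.888% lower). DESeq2 called 6 of the 33 pairs. Over the 5 types the haematopoietic markers added up to 56.5 to 102 CPM with alendronate, 41.1 to 67.8 in adult sums and 24.8 to 36.4 with PTH. The immediate early genes added up to 1916 to 3147 CPM with alendronate against 1520 to 2241 in adult sums, and were higher in each type. The part of these measures was not tested.

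Ace rose with alendronate in 4 types. It had 315 and 395 CPM in aECs against 209 and 211 in adult aECs (0.73 ± 0.10, adjusted p = 4.41e-06), 25.3 and 25.3 CPM in mpECs against 15.8 and 14.6 (0.72 ± 0.15), 119.6 and 149 CPM in capillary rECs against 90.2 and 65.5 (0.72 ± 0.19) and 9.52 and 6.98 CPM in bmECs against 3.89 and 4.41 (0.98 ± 0.24). The groups did not overlap in these types. The calls in aECs and mpECs were kept under every setting and without any single library, that in bmECs was lost with DESeq2 and without alendronate replicate 1, and that in capillary rECs was lost without adult replicate 1, adult replicate 2 or alendronate replicate 2, with DESeq2, without integration, with the stricter cell filter and without the cells highest in immediate early genes. In alendronate bmECs 0.921 and 0.694% of cells held a UMI of Ace, inside the leukocyte interval. The arterial markers were also higher in all 4 types without overlap, with 7977 and 8021 against 7177 and 7078 CPM in aECs, 1038 and 1131 against 770.0 and 873 in mpECs, 1710 and 1895 against 1550 and 1251 in capillary rECs and 150.1 and 149.6 against 126 and 137 in bmECs. Their part was not tested. The aEC clusters described above differed in Ace, and the part of a shift between them was not tested either.

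Edn1 rose with alendronate in mpECs (5.45 and 13.3 against 3.51 and 3.21 CPM, 1.45 ± 0.35) and in capillary rECs (108 and 123 against 72.6 and 35.1 CPM, 1.01 ± 0.22, adjusted p = 0.00482). The value in mpECs rested on alendronate replicate 2, without which it was 0.68 and not called, and that in capillary rECs was lost without adult replicate 2, with DESeq2 and with the stricter cell filter, was 1.67 without adult replicate 1 and was 0.36, not called, without the cells highest in immediate early genes. In capillary rECs those 8 genes added up to 3147 and 3002 CPM in the alendronate sums against 2029 and 1895 CPM in the adult sums. The markers of capillary rECs themselves added up to 5267 to 5353 CPM against 6379 to 6546 CPM, and their part was not tested. Npr3 fell in bmECs, from 22.4 and 23.8 to 9.68 and 10.6 CPM (-1.20 ± 0.14, adjusted p = 7.01e-08), and in mpECs, from 5.26 and 7.49 to 3.05 and 2.30 CPM (-1.24 ± 0.35, adjusted p = 0.0185). The call in mpECs was lost without adult replicate 2 or either alendronate library, at a resolution of 0.8 and without likely doublets. The sinusoidal markers were higher with alendronate in both types, with 12554 and 12347 against 12070 and 11439 CPM in bmECs and 3034 and 3120 against 2902 and 2814 CPM in mpECs.

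Ednrb fell with alendronate in Tagln/Vwf rECs, from 73.8 and 62.5 to 21.5 and 26.3 CPM (-1.58 ± 0.29, adjusted p = 0.00195). At a resolution of 0.8 the change was -0.62 and with types from each cell's own markers -0.41, neither called, and it was lost without adult replicate 1. The lymphatic markers of this type stood at 17.2 CPM in both alendronate sums against 16.4 and 16.3 in the adult ones. Its metaphyseal markers added up to 1669 to 1677 CPM with alendronate against 2229 to 2335 in adult sums. Its mesenchymal markers added up to 197 to 207 against 130 to 131 CPM. The part of these markers was not tested. In aECs Ednrb rose by 0.43 ± 0.11, from 84.4 and 76.7 to 99.5 and 122 CPM, a call that was lost without adult replicate 1, adult replicate 2 or alendronate replicate 2, with DESeq2, with types from each cell's own markers and without the cells highest in immediate early genes. Ece1 in bmECs had a log2 fold change of -0.22 ± 0.05, which was -0.092 at a resolution of 0.3 and -0.11 without integration, neither called. Nos3 was called with neither drug in any type, with log2 fold changes between -0.43 ± 0.17 and 0.10 ± 0.26 for PTH and between -0.28 ± 0.24 and 0.09 ± 0.11 for alendronate.

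Of the related genes, Cav1 rose in bmECs with PTH (0.96 ± 0.10) and with alendronate (0.68 ± 0.10). With PTH the nitric oxide list had 1 of 14 called in bmECs, 5 of 12 in mpECs, 3 of 12 in aECs and 1 of 11 in capillary rECs, all higher, with medians of 0.05, 0.14, 0.09 and -0.12, where 5.71, 8.58, 3.4 and 1.58% of all genes were called higher. In Tagln/Vwf rECs 0 of 11 were called (-0.04). With alendronate it had 4 higher and 1 lower of 14 in bmECs (0.08), 4 higher of 12 in mpECs (0.12), 3 higher of 12 in aECs (0.26) and 2 higher of 11 in capillary rECs (-0.02), where 11.3, 7.56, 3.82 and 1.66% of all genes were called higher, and 0 of 11 in Tagln/Vwf rECs (0.02). Among them was Hsp90aa1, a chaperone that binds nitric oxide synthase, which rose in capillary rECs with PTH (0.78 ± 0.21) and alendronate (1.09 ± 0.17). Pde2a was lower in aECs with PTH (-0.47 ± 0.09) and alendronate (-0.75 ± 0.10), and Enpep was lower in mpECs with PTH (-0.46 ± 0.09) and in aECs with alendronate (-1.79 ± 0.39). Of the natriuretic list 1 was lower in aECs and 1 in mpECs with PTH, and 1 in bmECs, mpECs and aECs each with alendronate. Of the angiotensin list 1 was lower in mpECs with PTH and 1 in aECs with alendronate, and the single endothelin gene tested was called with neither drug.

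Whether a change in 1 type differed from the mean change in the other types was tested as an interaction of type and group. Of 140 such differences 20 were called, 8 higher and 12 lower. For juvenile libraries 0 were called in bmECs (3.45% of all genes), mpECs (3.5%) and aECs (0.958%), 1 in capillary rECs (0.773%) and 1 in Tagln/Vwf rECs (0.992%). For aged libraries 1 was called in bmECs (14.4%), 2 in mpECs (2.66%), 2 in aECs (2.9%), 1 in capillary rECs (2.5%) and 0 in Tagln/Vwf rECs (1.15%). For PTH 1 was called in bmECs (1.82%), 4 in mpECs (2.39%), 2 in aECs (0.966%), 0 in capillary rECs (1%) and 1 in Tagln/Vwf rECs (0.429%). For alendronate 1 was called in bmECs (1.99%), 0 in mpECs (1.08%), 2 in aECs (0.748%), 0 in capillary rECs (0.782%) and 1 in Tagln/Vwf rECs (0.672%).

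The rise of Ednrb in aged aECs exceeded the mean change in the other types by 1.25 ± 0.18 (adjusted p = 1.22e-06 by edgeR's test). This call was kept under every setting and without any single library, and the value was 1.84 without integration. The mean includes the fall in bmECs, at a share of cells below that of leukocytes, which widens the difference. Ednrb also rose in aged mpECs, and the difference from mpECs alone was not tested. The rise of Ece1 with age did not differ between types at an adjusted p under 0.05, with differences from -0.23 ± 0.09 in aECs to 0.34 ± 0.11 in Tagln/Vwf rECs. With PTH the change of Ace in aECs was below that in the other types by -0.92 ± 0.13 (adjusted p = 4.75e-07), and those in bmECs and mpECs were above by 0.96 ± 0.27 and 0.76 ± 0.18, and these 2 calls, unlike that in aECs, were lost without adult replicate 1 or adult replicate 2. With alendronate the change of Ace showed no such difference, the value in aECs being 0.05 ± 0.13. The change of Edn1 in aECs was below that in the other types with PTH (-0.78 ± 0.19) and with alendronate (-1.15 ± 0.19).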

How the data were processed

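Single-cell libraries were prepared with 10x Chromium 3′ chemistry and sequenced on a NextSeq 500. Per the submitters' processing notes, the authors used UMI-tools 1.1.2, STAR 2.7.10a, the mm10 genome and featureCounts of Subread 2.0.3. The annotation release and the strand setting are not given in the sources used here. The deposited values are raw UMI counts per gene and cell barcode for 10 libraries, 2 per group, with 10653583 to 28419323 UMIs each. Replicate libraries differed by more than counting noise (chi-square per degree of freedom 2.13 to 4.47), and all were used as separate samples. As the mice of a group were pooled and prepared once, p-values measure only the spread between these libraries.

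Cells with 500 to 6000 genes and under 25% mitochondrial UMIs were clustered with Seurat 5.3.0 on 2000 variable features and 30 principal components after integration of the libraries, at a resolution of 0.5, and the members and related genes were left out of the features. Clusters were named where at least 3 fixed markers led. Doublets were kept in the counts used here, and 1954 likely doublets were left out in an alternative. Age and treatment libraries were integrated separately, and 6967 of 7344 adult cells that had 1 of the 5 types in both had the same one. Over all names, those outside the 5 types included, 7476 of 10632 adult cells had the same name in both. Levels of the same adult libraries therefore differ between the comparisons with age and with drugs, as those of Ace in aECs and mpECs above.

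Counts were summed per type and library where at least 20 cells were present. The sums were tested with edgeR 4.0.16 (quasi-likelihood test, TMM factors, filter on low counts, Benjamini-Hochberg adjustment over all genes tested, two-sided). Levels are CPM with TMM factors over all sums jointly. Every member was tested in every comparison where it passed the filter on low counts, and members without a call are not all named. Of the related genes, those named are among the at most 3 per list with the largest change of those called and reaching 20 CPM in their highest type, and a few more that were chosen after their values were seen. Shares used cells thinned to 1000 UMIs, leaving out shallower cells, with exact 95% binomial intervals. Promoter and gene coordinates were read from RefSeq GRCm38.p6 and GENCODE vM21 tables. Nos3 had no promoter entry. Scripts were tested on simulated counts. Python 3.11.15, R 4.3.3 and DESeq2 1.42.0 were also used.

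The alternatives were other size factors, DESeq2, no filter on low counts, a replicate block, resolutions of 0.3 and 0.8, no integration, types from each cell's own markers, cells without likely doublets, a stricter cell filter of 1000 genes and 10% mitochondrial UMIs, cells without the 25% highest in immediate early genes, and each library left out. The members, gene lists and tests were chosen with earlier results of these data known.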

Additional observations from a re-analysis of the deposited data

Results flagged for a closer look

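Each of the following changes in 1 type differed from the mean change in the other 4 types by the interaction test of edgeR at an adjusted p under 0.05, on the log2 scale. Groups of 2 libraries were not tested for a single outlying library.

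In juvenile libraries the differences were 1.45 for Ednrb in capillary rECs (adjusted p = 0.0137) and 0.61 for Ece1 in Tagln/Vwf rECs (adjusted p = 0.0151). The first was lost without either juvenile library or adult replicate 1, and the second without juvenile replicate 1, adult replicate 1 or adult replicate 2. With types from each cell's own markers they were 0.40 and 0.0048, neither called.

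In aged libraries Ednrb differed by -1.50 in bmECs and by 1.25 in aECs, with adjusted p of 0.000202 and 1.22e-06. The first was -0.83, not called, at a resolution of 0.8, and the second 1.84 without integration. The share of aged bmECs with a UMI of Ednrb, given above, was below that of leukocytes over all libraries. The change in bmECs enters the mean that aECs were set against, and that in aECs the mean for bmECs. Edn1 differed by -1.29 in mpECs and by -0.69 in aECs, and Npr1 by -0.52 in mpECs and by 0.63 in capillary rECs. With types from each cell's own markers the value for Edn1 in mpECs changed its sign to 0.90, and those of Npr1 were -0.23 in mpECs and 0.22 in capillary rECs, none of them called. At a resolution of 0.8 the values for Edn1 were -0.35 in mpECs and -0.50 in aECs, neither called. The value for Edn1 in mpECs was lost without adult replicate 1, adult replicate 2 or aged replicate 1, that in aECs without any 1 of the 4 libraries (it was -2.53 without integration), and that of Npr1 in capillary rECs without adult replicate 1 or aged replicate 1.

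With PTH, Ace differed by 0.96 in bmECs, by 0.76 in mpECs and by -0.92 in aECs. In mpECs Ednrb differed by 0.61, Npr1 by -0.33 and Npr3 by -2.88. The value of Npr3 was lost without any 1 of the 4 libraries and was -1.57 without PTH replicate 2 and -0.99 with types from each cell's own markers. It also leans on types with few counts: all 8 UMIs of Npr3 in Tagln/Vwf rECs of the treatment libraries came from drug-treated mice. Edn1 differed by -0.78 in aECs and Ednrb by -1.74 in Tagln/Vwf rECs, the latter being -2.42 without PTH replicate 2, -0.45 at a resolution of 0.8 and -0.070 with types from each cell's own markers, the last 2 not called. The values for Ace in bmECs, Ace in mpECs and Npr1 in mpECs were lost without adult replicate 1 or adult replicate 2, and 1 of the PTH libraries in each case (replicate 1 for Ace in bmECs and Npr1, replicate 2 for Ace in mpECs), that for Ednrb in mpECs without adult replicate 1 and that for Edn1 without adult replicate 2 or PTH replicate 1. Types from each cell's own markers ended the calls of Ace in bmECs (0.68), Ednrb in mpECs (0.12) and Npr1 in mpECs (-0.19).

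With alendronate, Ece1 differed by -0.38 in bmECs, Edn1 by -1.15 and Ednrb by 0.76 in aECs, and Ednrb by -1.70 in Tagln/Vwf rECs. These 4 were kept without any single library, and those of Ednrb were lost at a resolution of 0.8 (0.63 and -0.76) and with types from each cell's own markers (0.23 and -0.62). Of the 20 differences, those of Ednrb in aged aECs, Ace in PTH aECs and Ece1 and Edn1 with alendronate were kept under every setting and without any single library.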

How the results depend on the processing

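Of 164 calls of a member, 95 were kept under every alternative and without any single library: 13 of 16 between types, 43 of 54 between pairs of types, 16 of 21 between types in the drug libraries, 4 of 20 differences between types in a change, 1 of 9 for juvenile, 10 of 21 for aged, 5 of 12 for PTH and 3 of 11 for alendronate libraries. Alternatives for pairs of types and for differences between types in a change were added after seeing the data. Leaving out 1 library gave 15 to 17 calls between types, 52 to 55 between pairs, 18 to 22 in the drug libraries, 11 to 21 for differences between types in a change (11 without adult replicate 1), 5 to 9 for juvenile (5 without juvenile replicate 1), 16 to 22 for aged, 7 to 12 for PTH (7 without adult replicate 1) and 7 to 12 for alendronate libraries (7 without adult replicate 2). A lone library left in a group was assumed to vary like the others. The other alternatives moved a count by over 1.5 times in few cases: types from each cell's own markers gave 13 differences between types in a change instead of 20, clustering without integration gave 5 juvenile calls instead of 9, and DESeq2 gave 5 PTH calls instead of 12 and 6 alendronate calls instead of 11. The mean share of aECs with a UMI of Ece1, 45.6% at 1000 UMIs, was 67.3% at 2000 UMIs and 80.3% without thinning. A value changed its sign in 11 cases: with types from each cell's own markers, Npr3 between mpECs and Tagln/Vwf rECs (-0.72), Edn1 in aged mpECs against the other types (0.90), Ednrb in juvenile mpECs (-0.084), Edn1 in aged bmECs (-0.17) and Ednrb in PTH Tagln/Vwf rECs (0.27), without integration, Ace between aECs and Tagln/Vwf rECs (-0.16), Nos3 and Npr3 in juvenile bmECs (0.35 and 0.59) and Edn1 and Ace in aged aECs (-1.23 and -0.999), and at a resolution of 0.8, Npr1 between bmECs and Tagln/Vwf rECs (-0.020). The cause was not tested. Of 2790 recomputed single values, 2510 kept direction and call, 266 lost the call, 3 had no adjusted p from DESeq2 and 11 changed sign. Replicate numbers did not pair the libraries: the correlation of deviations of same-numbered libraries was -0.142 to 0.0799 over 24 comparisons, and with 2 libraries per group the numbers are names only. With the replicate block 9 juvenile, 20 aged, 12 PTH and 11 alendronate calls were made, and among the aged ones those of Edn1 in aECs and Ace in Tagln/Vwf rECs were lost and that of Ednrb in Tagln/Vwf rECs (0.86) was gained. Npr3 did not pass the filter on low counts in either rEC type in the comparisons between groups.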

Other observations

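The clusters inside mpECs in the libraries of the 3 ages, and a cluster without a name, also differed in these genes, which is given as a description, in CPM over the pooled cells of a cluster. In the libraries of the 3 ages, the mpEC cluster led by Kcne3 and Apln had 314 CPM of Ednrb and 2.6 CPM of Npr3, and the one led by Rbp7 had 215 and 15.1 CPM. In the treatment libraries an unnamed cluster of 480 cells led by Ptx3 and Ctgf had 36.8 CPM of Npr3.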
